A study of Phyllostachys violascens with 16 samples.

Results

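The genes described here encode the light-harvesting and electron-carrying proteins of the chloroplast, with Rubisco and its activase, in stored shoots of Lei bamboo. They were chosen by the description that the deposited table gives each gene, with no use of a measured value. A total of 79 of the 50936 genes were described as chlorophyll a-b binding or light-harvesting proteins, photosystem proteins, oxygen-evolving proteins, plastocyanin or ribulose bisphosphate carboxylase, chaperonins left out. By role, 21 were antenna genes of photosystem II, 13 were antenna genes of photosystem I and 12 were photosystem I subunits. A further 10 were core or small subunits of photosystem II, 8 belonged to the oxygen-evolving complex and 8 were assembly or repair factors. The rest were 2 plastocyanin genes, 2 Rubisco activase genes, 2 Rubisco small subunit genes and 1 gene for the one-helix protein OHP1. No member was described as the Rubisco large subunit.

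In a chloroplast, antenna proteins hold chlorophyll and pass absorbed light energy to photosystems II and I. Photosystem II splits water with the help of its oxygen-evolving proteins, and electrons then run through the cytochrome b6-f complex and plastocyanin to photosystem I and ferredoxin. Rubisco fixes carbon dioxide with the energy so gained, and Rubisco activase frees its blocked sites. Nuclear genes for these proteins are known for rising together when a plant greens in the light. Each of them often exists as several copies, and descriptions of best database hits name the closest known protein, not a tested function in bamboo.

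Total RNA was sequenced from the middle 10 cm of Lei bamboo (Phyllostachys violascens) shoots that stood 30 to 40 cm tall. The shoots were bagged in polyethylene at 60 to 70% humidity and held at 4 °C, 30 of them per repeat, and were sampled after 0, 2, 6 and 20 days. The 4 groups, named 0d, 2d, 6d and 20d, hold 4 libraries each, and each library pools segments of 6 shoots. The labels give neither the lighting of the store nor shoots held at another temperature, so cold, time after harvest and packing cannot be told apart. In these whole segments, fewer green cells and less RNA per green cell cannot be told apart either.

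Total deposited counts ranged from 51711700 to 64859200 per library, and 22723 to 25819 genes reached 1 FPKM (fragments scaled by gene length and library depth). Replicates of a group differed by a median of 1.81 times the sampling noise over all tested genes and 1.44 times over the members, where 1 means sampling noise alone. These ratios take 4 deposited counts as 1 fragment, which is an assumption. A gene was tested when its mean over all libraries reached 1 FPKM, which 24944 genes did. It was called lower or higher at a Benjamini-Hochberg adjusted p below 0.05 in edgeR's quasi-likelihood test together with a log2 change of at least 1. Log2 changes below are edgeR's fitted values after TMM scaling, while levels are FPKM as deposited. The SE beside a log2 change was derived from the test, as the absolute change divided by the square root of the F statistic. With plain total-count scaling, the median change of all tested genes was -0.255 at 2d, -0.214 at 6d, then -0.304 at 20d, against values near 0 with TMM.

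Of the 79 members, 55 were tested, and most of them were lower in stored shoots from the first sampling on. At 2d, 42 members were called lower than at 0d, where 18.1% of all tested genes were called lower, and 3 were called higher, against 13.1% of all tested genes. At 6d, 40 were called lower (21.6% of all tested genes) and 0 higher (16.8%). At 20d, 45 were called lower (24.5%) and 0 higher (19.5%). The median log2 change of the tested members was -3.39 at 2d, -3.36 at 6d, then -5.95 at 20d, with medians of all tested genes of -0.0035, -0.024 and 0.016. At 20d the median was -5.87 when the 9 members with no fragments at 20d were set at their counting bounds. Members with 1 to 3 fragments kept their fitted values. Of the tested members, 22 were below 1 FPKM in every stored group and so were tested only through their 0d level, and counts over the tested members have to be read with that in mind.

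In all, 38 members were called lower at all 3 stored times and 47 at one stored time or more. Over all tested genes these 2 shares were not counted. The first can be no more than the 18.1% called lower at 2d, and the second is at least the 24.5% called lower at 20d. Every stored library lay below every 0d library in deposited FPKM for 47 members at 2d, 50 at 6d, then 51 at 20d, which was also so for 49.2%, 47.4% and 51.2% of all tested genes. An F test over the 4 times called 49 members, with 64.6% of all tested genes called. Summed over the 79 members, the level went from 1269 ± 7.74 FPKM at 0d to 467 ± 11 at 2d, 429 ± 9.88 at 6d, then 227 ± 15.3 at 20d (SD, n = 4). OHP1 alone made up much of the later sums, and without it the sum went from 1109 ± 20.1 FPKM at 0d to 167 ± 1.8 at 2d, 165 ± 5.84 at 6d, then 61.8 ± 1.46 at 20d, or 15.1%, 14.9% and 5.57% of the 0d value. The members with a mean of at least 1 FPKM numbered 60 at 0d, 29 at 2d, 31 at 6d, then 15 at 20d. The summed level therefore fell in steps, 1 between harvest and 2d and a further 1 between 6d and 20d, with similar sums at 2d and 6d. Not every class followed that course. Between 2d and 6d the summed core and small subunits of photosystem II fell from 24.9 to 13.8 FPKM. Most of that fall came from the PsbR gene PH02Gene08266. Plastocyanin rose from 1.03 to 4.03 FPKM between these times.

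**Figure D1:**
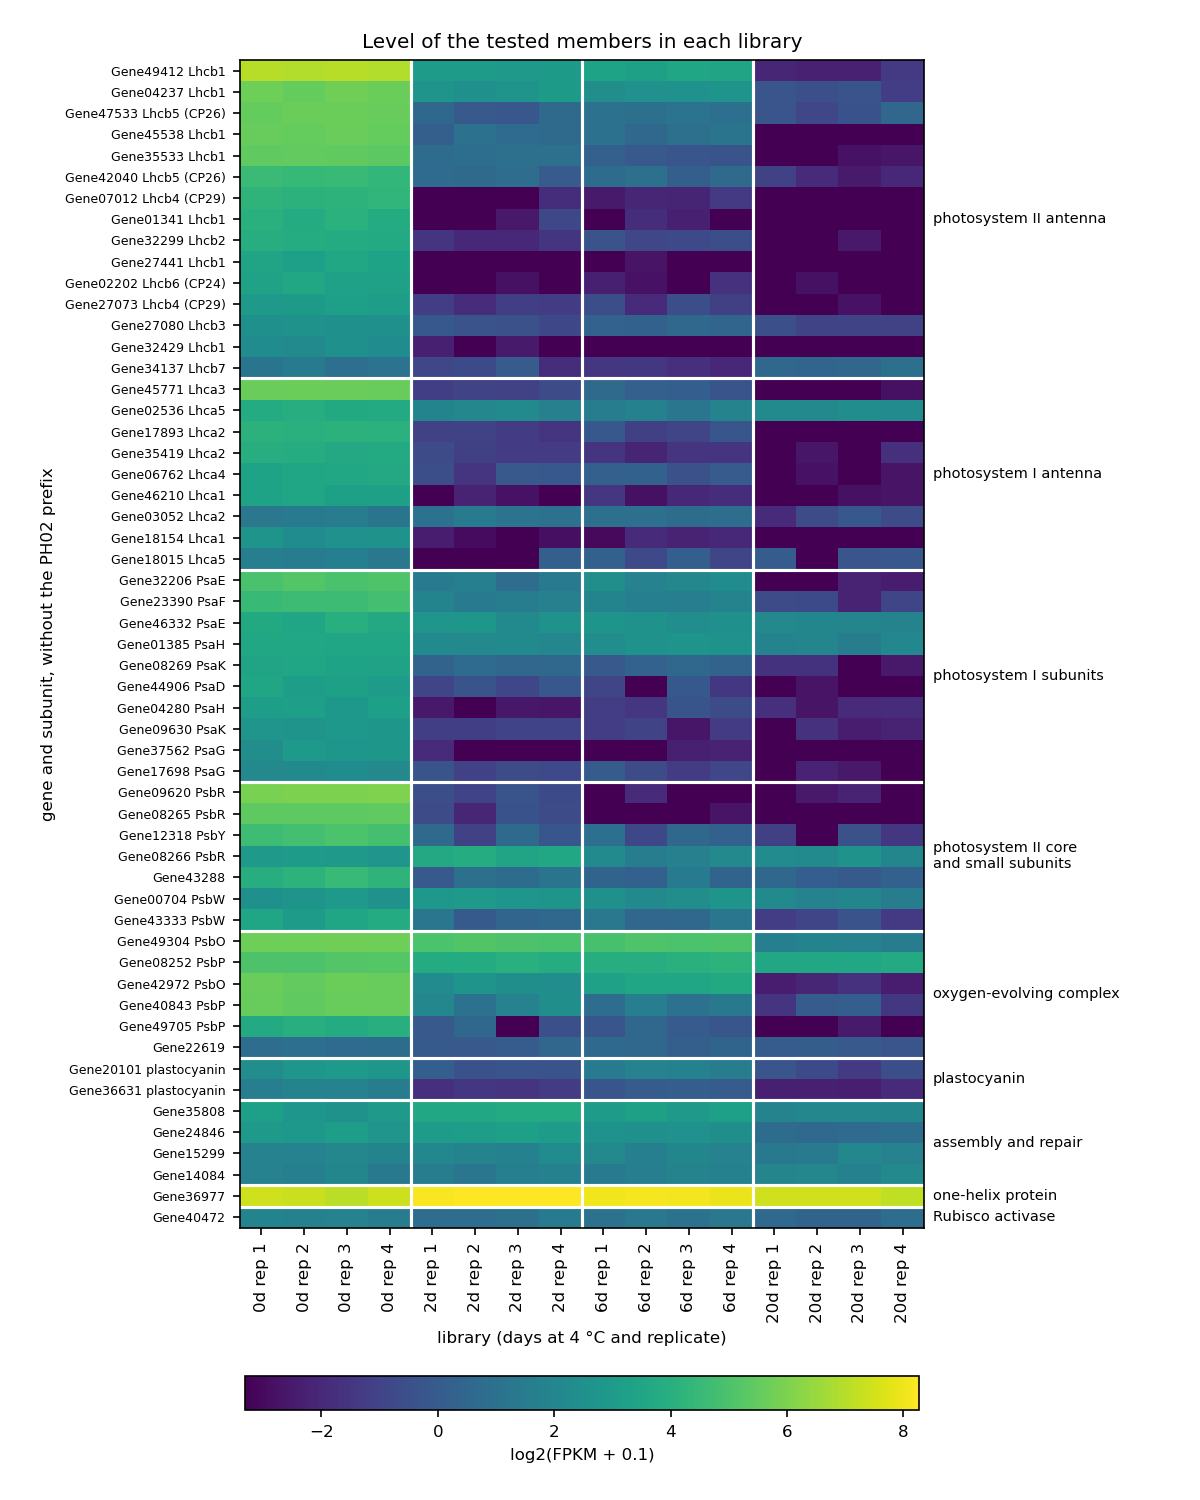
Each row is 1 of the 55 tested members and each column 1 of the 16 libraries, with colour giving log2(FPKM + 0.1) and white lines parting roles and times. Most rows darken (lower levels) between 0d and 2d, most antenna rows are close to 0 at 20d, and the row of OHP1 (Gene36977) stays the brightest in every stored library.

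**Figure D2:**
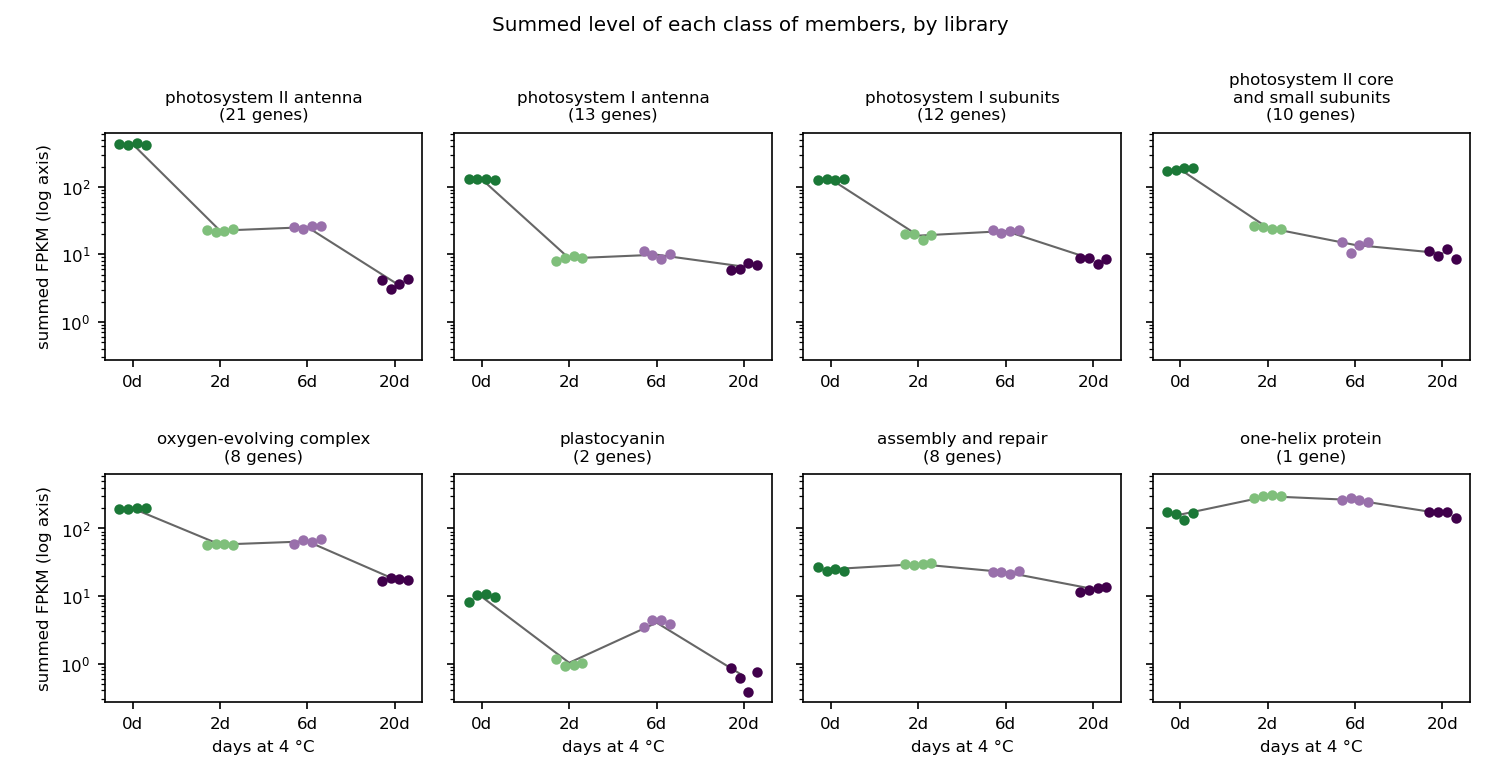
Points are the summed FPKM of a class in each of the 4 libraries per time, on a shared log axis, and lines join the group means. The antenna of photosystem II drops furthest, from 431 to 3.83 FPKM, plastocyanin partly returns at 6d, and the one-helix protein is highest at 2d.

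The antenna of photosystem II, made of the abundant trimer proteins Lhcb1 to Lhcb3 and the linking proteins Lhcb4 (CP29), Lhcb5 (CP26) and Lhcb6 (CP24), showed the lowest remaining share. Of its 21 genes 15 were tested, and 7 of these were below 1 FPKM in every stored group and so tested only through 0d. The class was called lower for 15 at 2d, 15 at 6d and 14 at 20d, against 18.1%, 21.6% and 24.5% of all tested genes. Its summed level went from 431 ± 12.4 FPKM at 0d to 22.5 ± 0.882 at 2d, 25.3 ± 1.2 at 6d, then 3.83 ± 0.587 at 20d, so that 0.888% of the 0d level was left at 20d. The most abundant gene, the Lhcb1 gene PH02Gene49412 (scaffold 16, 62398072 to 62399167, minus strand), stood at 129, 122, 132 and 124 FPKM at 0d, 8.47, 8.27, 7.63 and 8.0 at 2d, 10.5, 9.65, 11.5 and 10.8 at 6d, then 0.138, 0.111, 0.112 and 0.287 at 20d. Its 4 groups did not overlap between 0d and any stored time, and 2d and 6d lay close together. The log2 change was -3.72 (SE 0.068, edgeR adjusted p = 1.91e-24) at 2d, -3.40 (SE 0.066, edgeR adjusted p = 5.2e-24) at 6d, then -9.25 (SE 0.11, edgeR adjusted p = 1.46e-28) at 20d. The second most abundant Lhcb1 gene, PH02Gene04237, fell from 51 ± 3.05 FPKM at 0d to 6.55 ± 0.893, 5.71 ± 0.457 and 0.592 ± 0.18 (SD, n = 4), a log2 change of -6.10 (SE 0.14, edgeR adjusted p = 6.2e-21) at 20d.

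Other Lhcb1 genes reached still lower levels. PH02Gene45538 (scaffold 14, 36895247 to 36896491, plus strand) stood at 47.7, 45.9, 48.7 and 46.6 FPKM at 0d, 1.03, 1.96, 1.55 and 1.53 at 2d and 1.99, 1.35, 1.82 and 2.1 at 6d, and was listed at 0 in all 4 libraries at 20d. Against a floor of 3 fragments over the 4 libraries it was at least 904-fold lower at 20d than at 0d. PH02Gene35533 stood at 43.4, 44.4, 43.7 and 41 FPKM at 0d, 1.64, 1.73, 1.83 and 1.83 at 2d, 1.07, 0.838, 0.763 and 0.717 at 6d, then 0, 0, 0.0474 and 0.0603 at 20d, which was 1044-fold lower (exact 95% Clopper-Pearson interval 253 to 7552) at 20d. It also fell between 2d and 6d, by 1.13 on the log2 scale (SE 0.17, edgeR adjusted p = 1.72e-06). How reads that match several near-identical Lhcb1 copies were counted is not given in the sources used here, so the split of counts among these copies is uncertain.

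Of the linking antenna proteins, CP24 (Lhcb6, PH02Gene02202) stood at 10.3, 11.9, 9.93 and 9.86 FPKM at 0d, 0, 0, 0.0435 and 0 at 2d, 0.105, 0.0495, 0 and 0.211 at 6d, then 0, 0.042, 0 and 0 at 20d. A single stored library at most held more than 0.2 FPKM. Lhcb2, a trimer protein whose phosphorylation moves antenna between the photosystems in other plants, was read from PH02Gene32299 and went from 14.3 ± 0.495 FPKM at 0d to 0.198 ± 0.0515, 0.551 ± 0.0993 and 0.0188 ± 0.0375. The 2 CP26 genes kept somewhat more: PH02Gene47533 had 0.792 ± 0.362 FPKM at 20d after 48.8 ± 2.29 at 0d, and PH02Gene42040 had 0.195 ± 0.132 after 22.1 ± 1.36. The 2 CP29 genes, PH02Gene07012 and PH02Gene27073, had 18.4 ± 1.0 and 8.47 ± 0.776 FPKM at 0d, and at 20d the first was listed at 0 in all 4 libraries while the second had counts in 1 of 4. Lhcb7, a rare relative of these proteins, took another course. Lhcb7 was named from the ortholog column, while the description gave a chlorophyll a-b binding protein of LHCII type 1. Its gene PH02Gene34137 (scaffold 3, 37958249 to 37961487, minus strand) stood at 2.19, 2.71, 1.76 and 2.06 FPKM at 0d, 0.455, 0.504, 0.907 and 0.182 at 2d, 0.26, 0.271, 0.198 and 0.142 at 6d, then 1.35, 1.29, 1.31 and 1.86 at 20d. It was called lower at 2d, at -1.81 (SE 0.32, edgeR adjusted p = 1.33e-05), and at 6d, at -3.12 (SE 0.34, edgeR adjusted p = 8.3e-09). At 20d it was higher than at 6d, by 2.85 (SE 0.34, edgeR adjusted p = 5.27e-08), and its difference from 0d was -0.27 (SE 0.30, edgeR adjusted p = 0.402).

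The antenna of photosystem I, built from Lhca1 to Lhca4 with the scarce Lhca5, had 9 tested genes of 13 members. Of these 9, 6 were below 1 FPKM in every stored group and so tested only through 0d. The class was called lower for 8 at 2d, 7 at 6d and 8 at 20d, against 18.1%, 21.6% and 24.5% of all tested genes. Its summed level went from 129.6 ± 2.37 FPKM at 0d to 8.72 ± 0.553 at 2d, 9.9 ± 1.03 at 6d, then 6.57 ± 0.706 at 20d. The Lhca3 gene PH02Gene45771 (scaffold 20, 38559090 to 38560734, plus strand) was the most abundant at 0d, at 49.8, 50.5, 49.8 and 47.3 FPKM, and stood at 0.341, 0.423, 0.394 and 0.535 at 2d, 1.54, 1.08, 1.01 and 0.713 at 6d and 0, 0, 0 and 0.0435 at 20d. Every stored library was below 2 FPKM, and the slight return between 2d and 6d, 1.25 (SE 0.23, edgeR adjusted p = 0.000141), was called. At 20d a single fragment remained over the 4 libraries, 3546-fold lower (exact 95% Clopper-Pearson interval 636 to 140100.0) than at 0d. Lhca1, from PH02Gene46210, had 10.3 ± 0.716 FPKM at 0d and at most 0.257 FPKM in any stored library.

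Lhca5, which in Arabidopsis helps join photosystem I to the chloroplast NDH complex, was the most abundant of the class at 20d. The more abundant of its 2 tested genes, PH02Gene02536, stood at 13.9, 14.9, 13.3 and 13.6 FPKM at 0d, 3.63, 4.05, 4.58 and 3.27 at 2d, 2.82, 3.33, 2.28 and 3.57 at 6d, then 4.46, 4.29, 5.12 and 4.72 at 20d. All stored libraries were below all 0d libraries, and the 20d libraries were above those of 6d. The log2 change was -1.59 (SE 0.12, edgeR adjusted p = 4.66e-12) at 2d, -2.04 (SE 0.12, edgeR adjusted p = 3.59e-14) at 6d, then -1.27 (SE 0.11, edgeR adjusted p = 1.9e-10) at 20d, and 0.77 (SE 0.12, edgeR adjusted p = 2.72e-06) from 6d to 20d, under the limit of 1 for a call. At 20d this gene gave 4.65 ± 0.364 of the 6.57 ± 0.706 FPKM of the whole class. The second tested Lhca5 gene, PH02Gene18015, had 2.84 ± 0.293 FPKM at 0d and 0.617 ± 0.422 at 20d. It was called lower only at 2d, at -3.22 (SE 1.18, edgeR adjusted p = 0.0233). From 6d to 20d it changed by -0.16 (SE 1.1, edgeR adjusted p = 0.904), without the rise of PH02Gene02536. PH02Gene03052 was described as photosystem I chlorophyll a/b-binding protein 6, though the table's ortholog column groups it with Lhca2. Of the 3 tested genes in that group it was the least abundant at 0d. It was called lower at 20d, at -1.96 (SE 0.27, edgeR adjusted p = 3.94e-07), with log2 changes of 0.028 and -0.34 at 2d and 6d.

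The subunits of photosystem I had 10 tested genes of 12 members. Of these 10, 5 were below 1 FPKM in every stored group and so tested only through 0d. The subunits were called lower for 9 at 2d, 9 at 6d and 10 at 20d, against 18.1%, 21.6% and 24.5% of all tested genes. Their summed level went from 129 ± 2.8 FPKM at 0d to 19 ± 1.71 at 2d, 22.2 ± 1.12 at 6d, then 8.39 ± 0.742 at 20d. PsaE, a subunit on the stromal side near the ferredoxin site, was highest among them. Its gene PH02Gene32206 stood at 30.8, 35.8, 30.4 and 33.9 FPKM at 0d, 2.73, 3.12, 1.69 and 2.65 at 2d, 5.22, 3.49, 4.08 and 4.97 at 6d, then 0, 0, 0.118 and 0.0851 at 20d. PsaF, at the docking site of plastocyanin, was read from PH02Gene23390, at 22.8, 24.3, 24.7 and 27.8 FPKM at 0d, 3.63, 2.74, 2.87 and 3.24 at 2d, 3.63, 3.07, 3.03 and 3.56 at 6d, then 0.519, 0.512, 0.116 and 0.436 at 20d. PsaF held a like level at 2d and 6d, while every 6d library of PsaE lay above every 2d library (0.73 (SE 0.22, edgeR adjusted p = 0.00579), under the limit for a call); both dropped again at 20d. The log2 change of PH02Gene23390 was -2.74 (SE 0.18, edgeR adjusted p = 3e-10) at 2d and -5.66 (SE 0.23, edgeR adjusted p = 1.83e-13) at 20d, while PH02Gene32206 was 445-fold lower (exact 95% Clopper-Pearson interval 127 to 1800.0) at 20d. The genes of PsaD (PH02Gene44906), PsaG (PH02Gene37562 and PH02Gene17698) and PsaK (PH02Gene08269 and PH02Gene09630), outer subunits of the complex, were called lower at all 3 stored times, with 0d means between 4.51 and 10.7 FPKM and 20d means of at most 0.132 FPKM.

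Of 10 core and small subunits of photosystem II 7 were tested, 2 of them below 1 FPKM in every stored group. The subunits were called lower for 5 of the 7 at each stored time, against 18.1%, 21.6% and 24.5% of all tested genes. They were called higher for 1 at 2d, against 13.1% of all tested genes. Their summed level went from 182 ± 8.32 FPKM at 0d to 24.9 ± 1.12 at 2d, 13.8 ± 2.3 at 6d, then 10.4 ± 1.69 at 20d. Between 2d and 6d, 3 of the 7 were called lower and 0 higher, against 8.14% and 6.94% of all tested genes. PsbR, a small membrane subunit that in Arabidopsis helps hold the oxygen-evolving proteins, had 3 tested genes that did not share a course. PH02Gene09620 (scaffold 10, 26816861 to 26818443, plus strand) stood at 61, 62.9, 62.7 and 66.3 FPKM at 0d, 0.586, 0.41, 0.719 and 0.505 at 2d, 0, 0.162, 0 and 0 at 6d, then 0, 0.0726, 0.121 and 0 at 20d. PH02Gene08265 (scaffold 4, 55895940 to 55898099, minus strand) stood at 42.4, 41.6, 41.9 and 43.8 FPKM at 0d, 0.527, 0.134, 0.663 and 0.547 at 2d and 0, 0, 0 and 0.0536 at 6d, and was listed at 0 in all 4 libraries at 20d. Both were thus near 0 from 2d on. At 6d PH02Gene09620 was 1273-fold lower (exact 95% Clopper-Pearson interval 308 to 9204), and at 20d PH02Gene08265 was at least 696-fold lower.

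The third PsbR gene, PH02Gene08266 (scaffold 4, 55846255 to 55849597, minus strand), lies on the same strand 46.3 kb from PH02Gene08265 and stood at 7.31, 8.26, 7.49 and 6.48 FPKM at 0d, 12.7, 14.4, 11 and 12.1 at 2d, 4.4, 2.82, 3.17 and 4.3 at 6d, then 4.72, 4.44, 6.01 and 3.91 at 20d. The 2d libraries were above all others, and the 6d and 20d libraries were below those of 0d. It was called higher at 2d, at 1.01 (SE 0.17, edgeR adjusted p = 1.08e-05), with -0.83 (SE 0.18, edgeR adjusted p = 0.000177) at 6d, then -0.31 (SE 0.18, edgeR adjusted p = 0.108) at 20d, neither of them a call. From 2d to 6d it fell, at -1.84 (SE 0.18, edgeR adjusted p = 2.13e-09). The call at 2d ended, with values from 0.69 to 0.96, under total-count or upper-quartile scaling, in limma on FPKM, and without 0d replicate 4 (0.96) or 2d replicate 2 (0.94).

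PsbW, which in Arabidopsis steadies the joining of photosystem II with its antenna, also had unlike copies. PH02Gene00704 was called in no comparison and was the most abundant such member, at 5.6, 6.24, 7.71 and 6.03 FPKM at 0d, 7.17, 7.64, 6.78 and 6.37 at 2d, 5.57, 4.59, 5.27 and 6.23 at 6d, then 4.46, 3.47, 3.91 and 2.87 at 20d. It overlaps a gene on the other strand, and whether strand was used in counting is not given in the sources used here. PH02Gene43333, in contrast, fell from 11.2 ± 2.24 FPKM at 0d to 1.45 ± 0.581, 1.85 ± 0.537 and 0.434 ± 0.173, a log2 change of -4.31 (SE 0.30, edgeR adjusted p = 1.95e-12) at 20d. PsbY, a small subunit read from PH02Gene12318, went from 28.6 ± 2.5 to 0.313 ± 0.257 FPKM. PsbS, the protein that lets photosystem II shed excess light as heat, had too low a mean to be tested, with 1.51 ± 0.322 FPKM at 0d (PH02Gene34222) and at most 0.0122 on average at a stored time.

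The oxygen-evolving complex shields the manganese cluster that splits water, through PsbO, PsbP and PsbQ. Of 8 members 6 were tested, 1 of them below 1 FPKM in every stored group. Called lower were 3 at 2d, 3 at 6d and 5 at 20d, against 18.1%, 21.6% and 24.5% of all tested genes. The summed level went from 199 ± 5.15 FPKM at 0d to 57.8 ± 1.18 at 2d, 64.5 ± 4.51 at 6d, then 17.6 ± 0.728 at 20d. The 2 PsbO genes began alike and parted. PH02Gene49304 (scaffold 16, 79706470 to 79707942, minus strand) stood at 52.3, 52.4, 54.2 and 52.8 FPKM at 0d, 31.3, 34.8, 32.2 and 30.4 at 2d, 29.9, 34.2, 31.8 and 33.1 at 6d, then 3.08, 3.57, 3.42 and 2.78 at 20d. PH02Gene42972 (scaffold 14, 23077236 to 23078823, minus strand) stood at 49.5, 45.5, 50.9 and 47.3 FPKM at 0d, 4.73, 6.22, 5.33 and 5.09 at 2d, 9.86, 11.4, 11.2 and 13.2 at 6d, then 0.0922, 0.137, 0.218 and 0.0861 at 20d. The first held between 29.9 and 34.8 FPKM at 2d and 6d and then dropped, whereas the second was low at 2d, came back in part at 6d and was near 0 at 20d. For PH02Gene49304 the log2 change was -0.47 (SE 0.054, edgeR adjusted p = 2.38e-08) at 2d, too small for a call, and -3.72 (SE 0.066, edgeR adjusted p = 3.79e-25) at 20d. For PH02Gene42972 it was -2.92 (SE 0.096, edgeR adjusted p = 6e-18) at 2d, -8.09 (SE 0.15, edgeR adjusted p = 6.12e-23) at 20d and 1.02 (SE 0.095, edgeR adjusted p = 2.17e-09) from 2d to 6d.

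Of the PsbP genes, PH02Gene08252 stood at 32.7, 33, 36 and 36.8 FPKM at 0d, 14.1, 13.8, 16.2 and 14.5 at 2d, 14.7, 15, 16.3 and 17.7 at 6d, then 12.1, 12.4, 12.4 and 13.5 at 20d. Its 3 stored groups were close to each other and all below 0d, and the log2 change was -0.99 (SE 0.071, edgeR adjusted p = 3.17e-12) at 2d and -1.15 (SE 0.072, edgeR adjusted p = 1.23e-13) at 20d, of which only the second was a call. The value at 2d crossed the limit of 1 in 11 of 26 alternative settings. The other PsbP genes fell much further: PH02Gene40843 went from 46.6 ± 1.75 to 0.612 ± 0.412 FPKM and PH02Gene49705 from 14.7 ± 1.01 to 0.0195 ± 0.0391 FPKM. PH02Gene22619, described as an enhancer protein of the PsbQ kind, was called in no comparison, at 1.65 ± 0.0907 FPKM at 0d and 0.869 ± 0.105 at 20d.

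Plastocyanin, the copper protein that carries electrons to photosystem I, was encoded by 2 tested genes that shared a course with a return at 6d. PH02Gene20101 stood at 5.06, 6.78, 7.4 and 6.98 FPKM at 0d, 0.989, 0.662, 0.716 and 0.717 at 2d, 2.73, 3.48, 3.37 and 2.87 at 6d, then 0.745, 0.508, 0.288 and 0.58 at 20d. PH02Gene36631 stood at 3.04, 3.5, 3.4 and 2.8 FPKM at 0d, 0.196, 0.273, 0.248 and 0.309 at 2d, 0.746, 0.945, 1.05 and 0.937 at 6d, then 0.0999, 0.106, 0.0956 and 0.171 at 20d. In both, every 6d library lay above every 2d and 20d library and below every 0d library. The rise from 2d to 6d was 1.93 (SE 0.21, edgeR adjusted p = 1.48e-08) and 1.76 (SE 0.17, edgeR adjusted p = 1.92e-09), and the fall from 6d to 20d was -2.40 (SE 0.22, edgeR adjusted p = 3.79e-10) and -2.80 (SE 0.19, edgeR adjusted p = 8.41e-13). Against 0d, PH02Gene20101 changed by -2.83 (SE 0.21, edgeR adjusted p = 9.1e-12) at 2d and -3.29 (SE 0.22, edgeR adjusted p = 5.47e-13) at 20d.

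OHP1 is a small one-helix relative of the antenna proteins that in Arabidopsis helps build the photosystem II reaction centre. Its gene PH02Gene36977 (scaffold 9, 24061176 to 24062121, minus strand) was the most abundant member and stood at 173, 165, 134 and 169 FPKM at 0d, 284, 302, 310.2 and 305 at 2d, 260.1, 281, 267 and 247 at 6d, then 173, 174, 173 and 142 at 20d. Each 2d and 6d library lay above each 0d library, and 20d overlapped 0d. It was called higher at 2d, at 1.16 (SE 0.079, edgeR adjusted p = 3.33e-09). At 6d the value was 0.89 (SE 0.079, edgeR adjusted p = 6.05e-08) and at 20d 0.36 (SE 0.080, edgeR adjusted p = 0.0007), under the limit for a call. Under total-count scaling and in limma on FPKM, the value at 2d was 0.90 to 0.91, so that the call, but not the direction, rests on the scaling.

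Of 8 assembly and repair factors 4 were tested, with 0 called lower and 1 higher at 2d, 0 and 0 at 6d, and 1 and 0 at 20d, too few to set against the shares of all tested genes. The summed level was 24.9 ± 1.65 FPKM at 0d, 29.8 ± 1.03 at 2d, 22.5 ± 0.862 at 6d, then 12.7 ± 0.996 at 20d. PSA2, a factor needed to build photosystem I in Arabidopsis, was called higher at 2d for PH02Gene35808, which stood at 9.26, 6.71, 6.01 and 7.56 FPKM at 0d, 12.3, 12.4, 13.6 and 13.5 at 2d, 8.21, 9.47, 7.33 and 9.13 at 6d, then 3.54, 4.09, 3.97 and 3.92 at 20d. Its log2 change was 1.06 (SE 0.12, edgeR adjusted p = 1.11e-08) at 2d and -0.61 (SE 0.12, edgeR adjusted p = 5.79e-05) at 20d. The rise at 2d was 0.75 to 0.97 and no call under total-count or upper-quartile scaling, in limma, with a minimum of 5 FPKM and without 0d replicate 3. The second PSA2 gene, PH02Gene15299, was called in no comparison. The gene of PSA3, another photosystem I assembly factor, PH02Gene24846, stood at 7.62, 7.25, 8.57 and 6.6 FPKM at 0d, 8.39, 8.8, 9.22 and 8.15 at 2d, 6.16, 5.64, 5.81 and 5.41 at 6d, then 1.63, 1.47, 1.55 and 1.71 at 20d, and was called lower only at 20d, at -1.92 (SE 0.099, edgeR adjusted p = 2.08e-15). The photosystem II factor PSB27-H2, PH02Gene14084, was called in no comparison, at 3.25 ± 0.591 FPKM at 0d and 3.84 ± 0.40 at 20d.

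**Figure D3:**
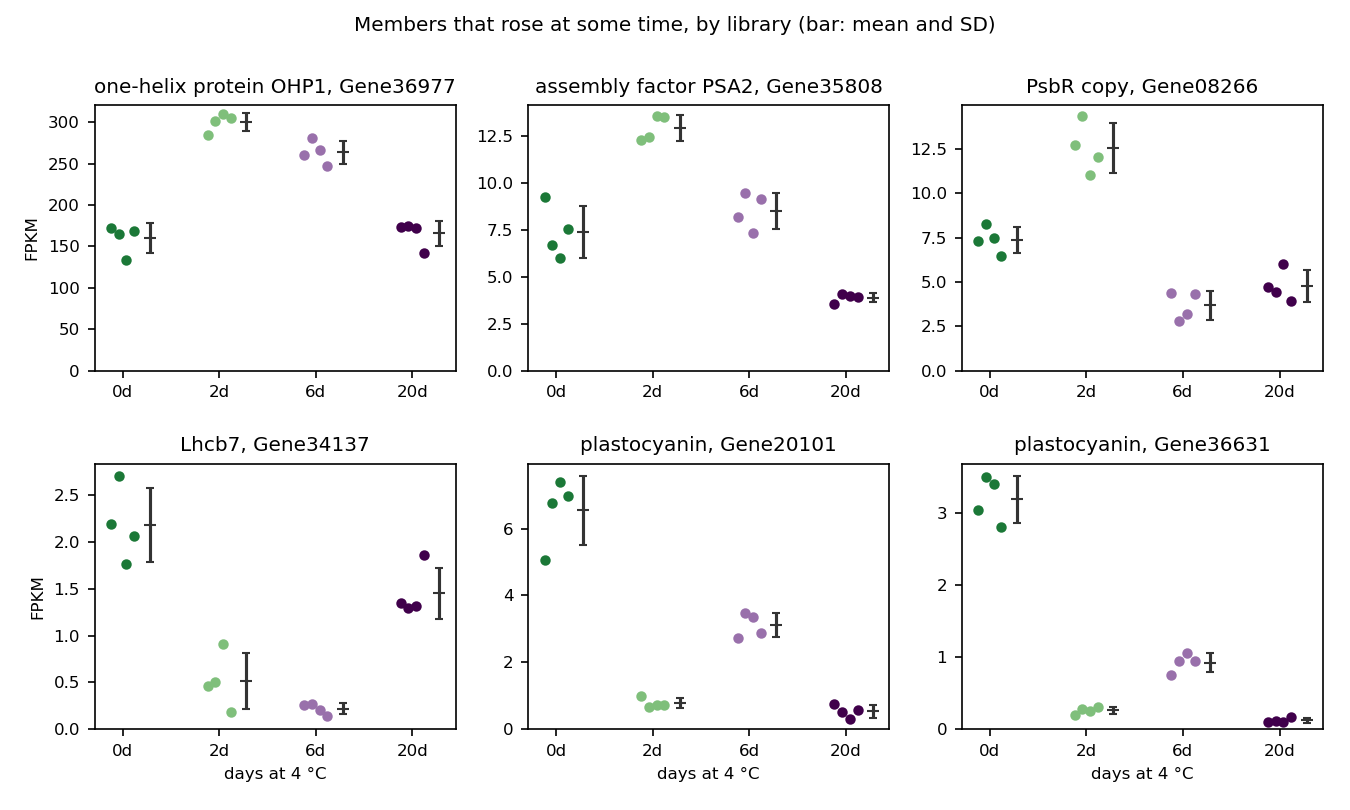
Points are FPKM in each of the 4 libraries per time, each panel with an axis from 0, and bars beside them are the mean and SD. OHP1, PSA2 and a PsbR gene are highest at 2d, both plastocyanin genes return in part at 6d, and Lhcb7 is back between 1.29 and 1.86 FPKM at 20d after 0.142 to 0.271 at 6d.

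**Figure D4:**
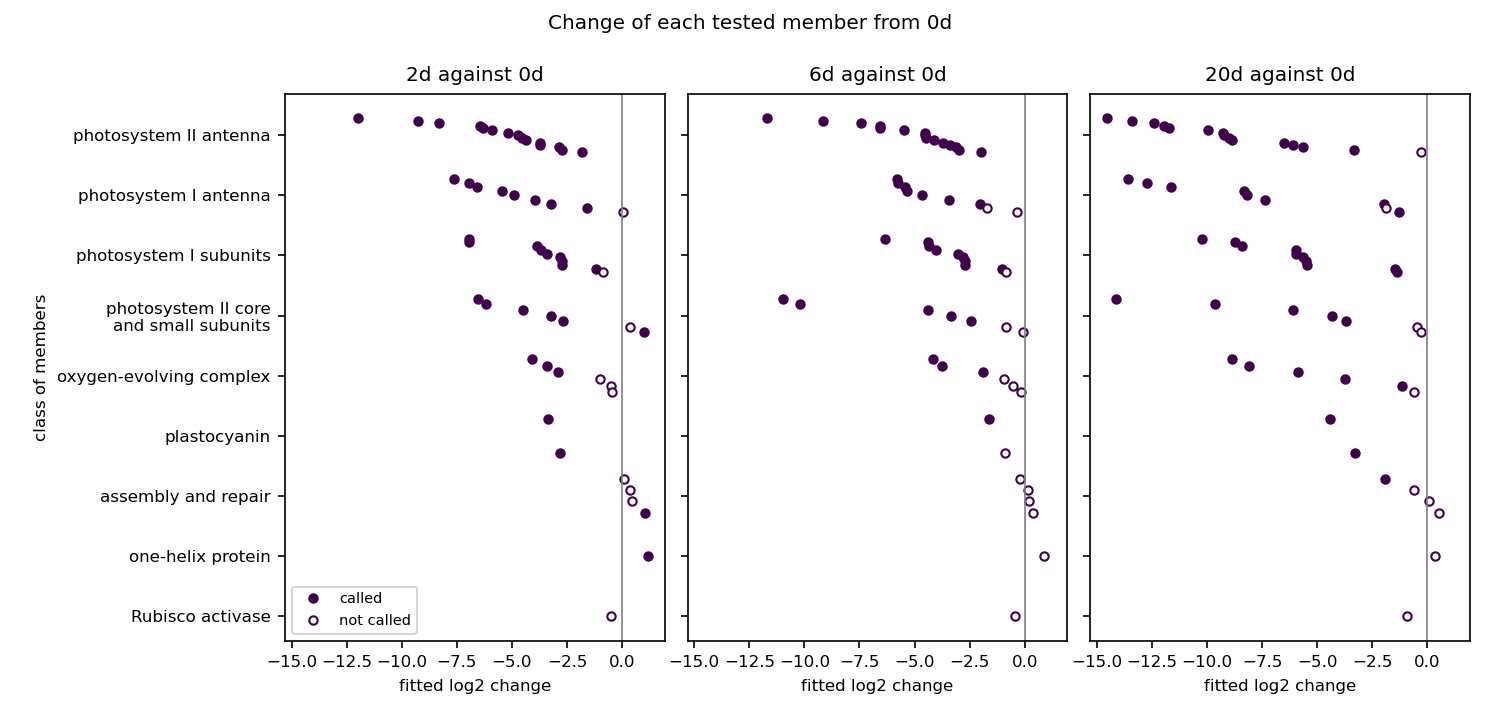
Each point is the fitted log2 change of a tested member from 0d in edgeR, by role, at 2d, 6d and 20d, filled where called at adjusted p below 0.05 and a log2 change of at least 1. Nearly all antenna points lie left of 0 at each time, assembly factors and OHP1 lie near 0 or right of it at 2d, and the points furthest left belong to genes with almost no fragments, whose position depends on the prior count.

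The Rubisco and activase genes that the rule caught were scarce, and the only tested one was called in no comparison. The 2 small subunit genes that the descriptions matched, PH02Gene24740 (scaffold 20, 47203395 to 47204524, minus strand) and PH02Gene26054, had almost no counts at 0d, with 0.0356 ± 0.0419 and 0 FPKM, and neither was tested. Without a filter on low values PH02Gene24740 was called higher at 2d, 6d and 20d, with 1.34 ± 0.342, 0.81 ± 0.318 and 0.211 ± 0.105 FPKM. Of all genes fitted, 11.8%, 15.4% and 17.2% were called higher at these times. The tested activase gene, PH02Gene40472, stood at 3.61, 3.37, 3.42 and 2.91 FPKM at 0d, 1.7, 1.72, 1.87 and 2.61 at 2d, 1.96, 2.41, 1.95 and 2.33 at 6d, then 1.47, 1.23, 1.25 and 1.75 at 20d, and was called in no comparison, with -0.91 (SE 0.16, edgeR adjusted p = 1.69e-05) at 20d. It crossed the limit of 1 under total-count or upper-quartile scaling, in limma on log2(FPKM + 0.1) and without 20d replicate 4, with values down to -1.23.

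The abundant Rubisco genes carry other descriptions and were looked up after values had been seen. The small subunit gene PH02Gene44479 had 341 ± 7.2 FPKM at 0d, 176 ± 5.94 at 2d, 117 ± 5.28 at 6d, then 29.7 ± 1.24 at 20d, and was called lower at 6d, -1.37 (SE 0.036, edgeR adjusted p = 2.27e-21), and 20d, -3.21 (SE 0.040, edgeR adjusted p = 3.34e-28). Of the 4 such small subunit genes, 1 was called lower at 2d, 3 at 6d, then 4 at 20d, with a median log2 change of -0.69 at 2d and -3.43 at 20d. That median at 2d lay nearer to 0 than the -4.71 of the photosystem II antenna, a difference that was not tested. Rubisco activase under such descriptions was lowest at 6d: PH02Gene23790 had 24.6 ± 1.36, 5.59 ± 0.153, 2.83 ± 0.398 and 6.35 ± 1.19 FPKM and PH02Gene18719 8.66 ± 0.722, 2.06 ± 0.147, 0.797 ± 0.138 and 5.75 ± 0.307 FPKM at the 4 times. Both rose between 6d and 20d, by 1.30 (SE 0.11, edgeR adjusted p = 1.97e-10) and 2.98 (SE 0.11, edgeR adjusted p = 1.05e-17). Another PsbR-type gene under such a description, PH02Gene44799, went from 58.8 ± 3.15 to 0.153 ± 0.166 FPKM.

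Copies of 1 subunit did not all share a course. Copies were grouped by the table's ortholog column. That column places PH02Gene03052, described as chlorophyll a/b-binding protein 6, with the Lhca2 genes, so its pairs may join different proteins. The difference between the changes of 2 copies was tested at each stored time where at least 1 of them had a mean of 1 FPKM or more at that time, a test and a limit chosen after the data were seen. Of 123 possible tests of 41 pairs, 52 were left out by that limit, since with both copies near 0 the difference only restates their levels at 0d. An exact two-sided permutation test over the libraries on log2 of the ratio of the 2 levels, each plus 0.1 FPKM, can give no p below 0.0286 with 4 libraries against 4. After Benjamini-Hochberg adjustment over the 71 tests, at a smallest adjusted p of 0.0327, the copies differed in 26 of 32 pairs at 2d, 28 of 30 at 6d and 8 of 9 at 20d. Of those pairs, 23, 24 and 8 differed by at least 1 on the log2 scale. The limit selects pairs with a copy that kept its level, and the pairs share genes and are not independent. Many pairs at 2d and 6d join Lhcb1 genes, whose split of counts is uncertain. Pairs of genes outside the members were not tested. These counts therefore describe the pairs and are no measure of how often copies part.

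At 20d the largest difference, 8.19, was between the PsbR genes PH02Gene09620 and PH02Gene08266. PsaE copies differed by 6.11: PH02Gene46332 kept 3.88 ± 0.347 of 13.2 ± 1.6 FPKM, while PH02Gene32206 kept 0.0509 ± 0.0603 of 32.7 ± 2.56. PsaH, the subunit at which mobile antenna binds, had PH02Gene01385 at 3.62 ± 0.556 of 11.8 ± 0.469 FPKM. The second PsaH gene, PH02Gene04280, stood at 9.05, 9.21, 7.06 and 9.35 FPKM at 0d, 0.0708, 0, 0.0682 and 0.063 at 2d, 0.326, 0.257, 0.718 and 0.545 at 6d, then 0.195, 0.0534, 0.159 and 0.181 at 20d, a difference between copies of 3.49 at 20d. PsbO copies differed by 3.72, PsbW copies by 3.65 and the PsbP genes PH02Gene08252 and PH02Gene40843 by 4.79. In each of these pairs the exact permutation p was 0.0286, the smallest possible, and values that involve a copy near 0 depend on the 0.1 FPKM added.

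**Figure D5:**
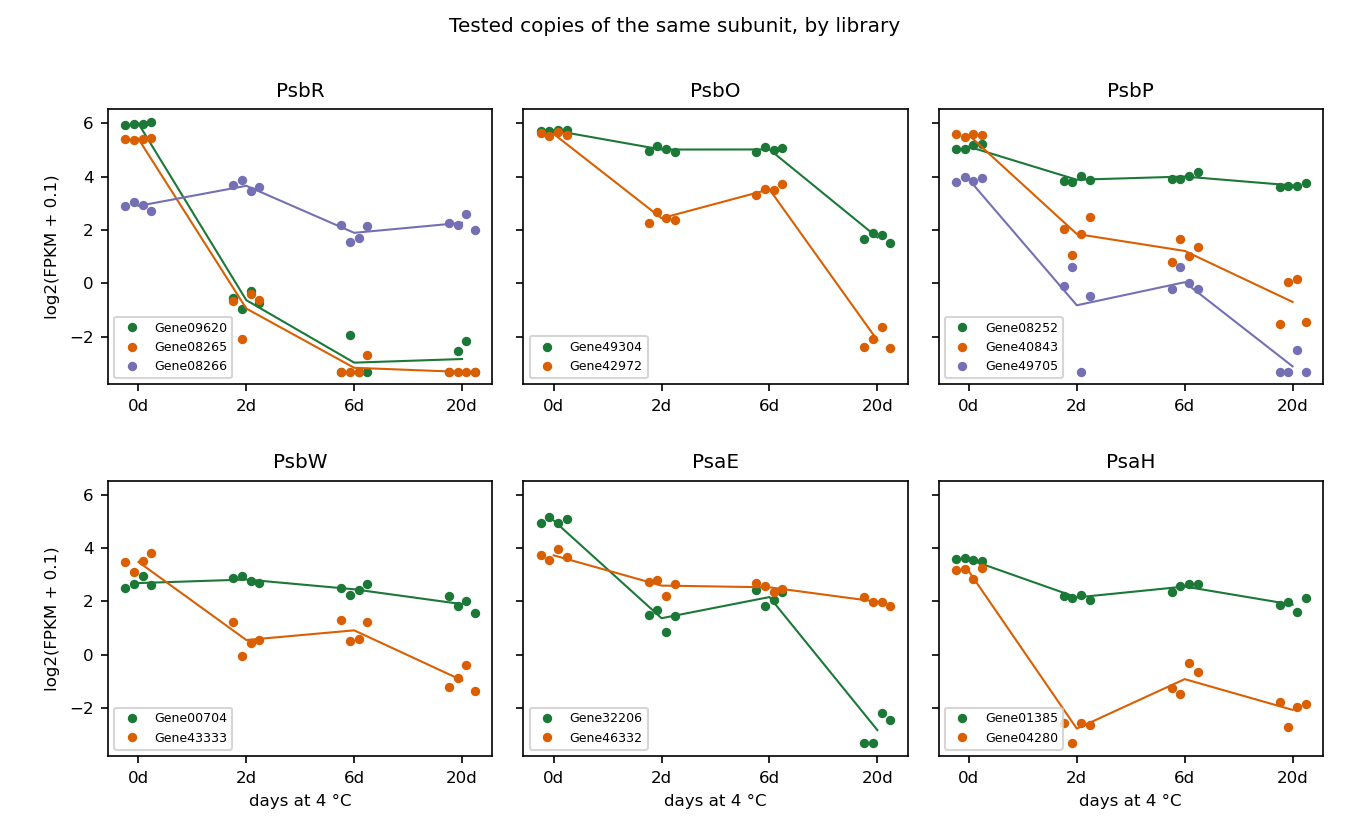
Each panel shows the tested copies of 1 subunit, with points for the 4 libraries per time and lines through the mean of log2(FPKM + 0.1). In every panel 1 copy stays above 2 FPKM in every 20d library while another lies below 1 FPKM in all 4; the upper PsbO copy also drops at 20d, to between 2.78 and 3.57 FPKM.

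Between 2d and 6d, 6 members were called lower, against 8.14% of all tested genes, and 8 higher, against 6.94%. Their median log2 change of 0.056 is taken over genes that went both ways. The 8 were both plastocyanin genes, the PsbO gene PH02Gene42972, Lhca3 PH02Gene45771, Lhca1 PH02Gene46210, PsaH PH02Gene04280, Lhcb2 PH02Gene32299 and CP24 PH02Gene02202. All of these stayed below their 0d level. For Lhca1 and CP24 the rise rests on 3 fragments and 1 fragment at 2d, and without 6d replicate 4 the count was 5. PsaH rose by 2.94 (SE 0.46, edgeR adjusted p = 5.96e-06) and Lhcb2 by 1.39 (SE 0.34, edgeR adjusted p = 0.00215). The 6 called lower were the PsbR genes PH02Gene09620, PH02Gene08265 and PH02Gene08266, Lhcb1 PH02Gene35533 and PH02Gene32429, and Lhcb7 PH02Gene34137. Of these, only PH02Gene08266 and PH02Gene35533 were above 1 FPKM in the 2d libraries. Between 6d and 20d, 35 members were called lower, against 14.2% of all tested genes, and 1 higher, Lhcb7, against 12.7%, with a median of -2.40, or -1.88 at counting bounds.

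Of the 24 untested members, 7 had 0 counts in every library and 17 had some. Without a filter on low values, 5 of these 24 were called lower at 2d, 4 at 6d, then 6 at 20d, against 18.0%, 20.3% and 23.8% of the genes fitted. In that fit 4 were called higher at 2d, 3 at 6d, then 2 at 20d, against 11.8%, 15.4% and 17.2%. They were the 2 Rubisco small subunit genes, the PsbQ gene PH02Gene22371 and the Lhca4 gene PH02Gene37203, which went from 0.0345 ± 0.040 FPKM at 0d to 0.375 ± 0.21, 0.983 ± 0.199 and 0.57 ± 0.236. All 4 stayed below 1.4 FPKM on average. An untested Lhca3 copy (PH02Gene10326) went from 2.09 ± 0.324 to 0.0349 ± 0.0403 FPKM at 2d, and an untested Lhcb3 copy (PH02Gene07001) from 1.63 ± 0.25 FPKM to 0 counts at 2d.

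Some members lie near each other, and the same pairs of subunits stand together on 2 scaffolds. On scaffold 10 an Lhcb3 and a CP29 gene lie 272.9 kb apart, and a PsbR and a PsaK gene 185.8 kb apart. On scaffold 4 an Lhcb3 and a CP29 gene lie 351.8 kb apart, and a PsaK gene lies 66.5 kb from PH02Gene08266. The neighbours PH02Gene08265 and PH02Gene08266 on scaffold 4 differed by 7.11 in their change at 2d. The genome build of these positions is not given in the sources used here.

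Other parts of the electron chain were read from lists of descriptions. The iron-sulfur subunit of the cytochrome b6-f complex, PH02Gene40575, went from 20.1 ± 1.45 FPKM at 0d to 8.06 ± 0.648, 3.94 ± 0.245 and 0.819 ± 0.0617, with a log2 change of -4.30 (SE 0.095, edgeR adjusted p = 3.5e-23) at 20d. It was the only tested chloroplast gene of its list, whose other 3 tested genes were described as mitochondrial. Both tested delta-chain genes of the chloroplast ATP synthase were called lower at 20d, and 1 of them at 2d and 6d. Of 16 tested genes with ferredoxin in the description, some of them enzymes that only use it, 4 were called lower at 2d, 5 at 6d, then 4 at 20d, and 0, 0 and 1 higher, against the 18.1%, 21.6% and 24.5% lower of all tested genes. Among the 9 that were ferredoxins or ferredoxin reductases, a division made after values were seen, 3, 4 and 3 were lower and 0, 0 and 1 higher. Ferredoxin reductase makes NADPH, and its 2 leaf-isozyme genes differed: PH02Gene31331 went from 11 ± 0.866 to 0.665 ± 0.167 FPKM and was called lower, and the more abundant PH02Gene17082 had 17.9 ± 1.33 at 0d and 23.8 ± 0.854 at 20d (0.73 (SE 0.057, edgeR adjusted p = 1.17e-11), no call). The chloroplast ferredoxin PH02Gene48975 had 12.3 ± 1.15 FPKM at 0d and was listed at 0 in all 4 libraries at 20d, while Ferredoxin-6 PH02Gene33144 rose from 1.03 ± 0.258 to 5.13 ± 0.674. Of 13 tested cyclic-flow and NDH genes, 5 were lower and 3 higher at 20d, against 24.5% and 19.5% of all tested genes. Of 3 PGR5-like genes, PH02Gene21309 went from 4.58 ± 0.30 to 0.351 ± 0.0724 FPKM and PH02Gene32587 from 3.47 ± 0.287 to 0, both called lower, and the most abundant, PH02Gene07458, had 19.5 ± 0.182 at 0d and 29.7 ± 1.4 at 20d (0.92 (SE 0.055, edgeR adjusted p = 4.23e-14), no call). Of 2 genes of the NDH lumenal subunit 3, PH02Gene22620 was higher, at 10.7 ± 1.11 after 2.88 ± 0.875 FPKM, and PH02Gene23115 lower, at 7.64 ± 1.78 after 27.8 ± 1.48.

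Carbon fixation genes were called lower more often than higher. Of 28 tested genes in the Calvin cycle list, 3 were described as methyltransferases that act on aldolase; they were set aside after values were seen. Of the other 25, 6, 8 and 10 were called lower at 2d, 6d and 20d, or 24%, 32% and 40%, against 18.1%, 21.6% and 24.5% of all tested genes. Called higher were 2, 2 and 2, or 8% each, below the 13.1%, 16.8% and 19.5% of all tested genes. With the 3 included, the counts were 6, 9 and 11 lower and 2, 2 and 2 higher. Phosphoribulokinase, PH02Gene03788, which makes the acceptor for carbon dioxide, went from 8.45 ± 0.565 to 0.765 ± 0.222 FPKM, while a second copy, PH02Gene02276, was called in no comparison with 0d, at 6.67 ± 0.151 and 7.0 ± 0.386 FPKM. Called lower was also sedoheptulose bisphosphatase PH02Gene11392, at 0.0154 ± 0.0307 after 2.95 ± 0.458 FPKM. Transketolase PH02Gene14490 was higher, at 96.6 ± 2.26 after 46 ± 0.757 FPKM, and also serves sugar metabolism outside photosynthesis. The photorespiration list held 30 tested genes, of which 9 were phosphoglycerate kinases, enzymes of glycolysis and the Calvin cycle, set aside after values were seen. Of the other 21, 3, 8 and 8 were called lower, or 14.3%, 38.1% and 38.1%. Called higher were 2, 1 and 3, or 9.52%, 4.76% and 14.3%, each below the share of all tested genes given above. With all 30 the counts were 4, 9 and 9 lower and 2, 1 and 3 higher.

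Of 15 tested genes of chlorophyll synthesis, 4, 3 and 6 were called lower at 2d, 6d and 20d and 1, 1 and 1 higher. The shares lower were 26.7%, 20% and 40%, against 18.1%, 21.6% and 24.5% of all tested genes, and the summed level was 263 FPKM at 0d, 199.9 at 2d, 192 at 6d, then 132 at 20d. Protochlorophyllide reductase B, PH02Gene14847, the light-driven step, went from 15.9 ± 1.35 to 5.04 ± 0.682, 9.88 ± 0.481 and 0.853 ± 0.148 FPKM. Of 13 tested genes of chlorophyll breakdown, 0, 0 and 1 were called lower and 2, 5 and 9 higher. The shares higher were 15.4%, 38.5% and 69.2%, against 13.1%, 16.8% and 19.5% of all tested genes, and the summed level was 116 FPKM at 0d, 160 at 2d, 157 at 6d, then 294 at 20d. The stay-green gene PH02Gene05142, whose product removes magnesium from chlorophyll in other plants, had 29.7 ± 1.3 FPKM at 0d, 27.2 ± 2.44 at 2d, 14.9 ± 1.17 at 6d, then 97.4 ± 0.655 at 20d, a log2 change of 2.03 (SE 0.056, edgeR adjusted p = 1.19e-17) at 20d. Pheophytinase PH02Gene47895, which then removes the phytol tail, rose to 30.6 ± 1.53 from 9.62 ± 1.05 FPKM, and red chlorophyll catabolite reductase PH02Gene27204 to 70.8 ± 3.45 from 20.8 ± 0.774.

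Of 30 tested regulators of light-responsive genes, 3, 6 and 8 were called lower at 2d, 6d and 20d, or 10%, 20% and 26.7%, against the 18.1%, 21.6% and 24.5% of all tested genes. Called higher were 7, 9 and 10, or 23.3%, 30% and 33.3%, against 13.1%, 16.8% and 19.5%. HY5, a transcription factor that in Arabidopsis turns on light-responsive genes and whose protein is degraded in the dark, was read from PH02Gene25237. Its levels were 1.63, 2.43, 2.34 and 1.59 FPKM at 0d, 4.75, 4.44, 2.94 and 3.13 at 2d, 5.02, 5.66, 5.5 and 4.63 at 6d, then 73.8, 61.9, 65.5 and 66.6 at 20d. All 20d libraries lay far above the rest, at a log2 change of 5.37 (SE 0.16, edgeR adjusted p = 1.46e-15), at the time when the antenna genes were lowest. PIF5, a factor of the family that holds back greening in the dark in Arabidopsis, had 0.72 ± 0.0609 FPKM at 0d and 6.07 ± 0.749 at 20d (PH02Gene36837). Phytochrome A, a light receptor of dark-grown seedlings, went from 71.8 ± 2.42 to 18.2 ± 0.414 FPKM (PH02Gene25126), and cryptochrome-1 PH02Gene40435 from 8.41 ± 1.01 to 43.7 ± 2.18 at 6d, then 20.6 ± 1.53 at 20d.

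Summed markers of other tissues also moved between the times. Summed FPKM of 59 genes of dividing cells (cyclins A and B and related genes) ranged over 108 to 115 at 0d, 127 to 135 at 2d, 141 to 150 at 6d and 75.8 to 79.3 at 20d. For 62 genes of secondary xylem and fibres (laccases, cellulose synthases of the secondary wall) the ranges were 32.7 to 36.2, 10.6 to 12.5, 21.4 to 23.6 and 83 to 87. For 83 genes of epidermis and cuticle they were 68.4 to 70.1, 43.9 to 46.1, 48.8 to 53.8 and 97.8 to 104. For 10 phloem genes they were 44.5 to 45.3, 25.3 to 26.8, 29.7 to 32.7 and 46.2 to 50, and for 17 guard cell genes 10.7 to 13.7, 9.32 to 11.7, 7.64 to 9.42 and 9.76 to 11.1. In every group 19 to 26 of the dividing-cell genes, 26 to 30 of the xylem and fibre genes and 32 to 41 of the epidermis genes were at 0, with 3 of the phloem and 7 to 10 of the guard cell genes. The phloem sucrose transporter SUT3 and the guard cell factor SPEECHLESS were at 0 in every group. Their part in the fall of the members was not tested.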

How the data were processed

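A total of 16 RNA-seq libraries of Lei bamboo shoot segments, 4 per storage time, were compared. The table as deposited by the authors gives FPKM and whole-number estimated counts per gene, per the file headers; no source used here names the aligner, the counter or the build. In the deposited estimated counts the most frequent value above 0 is 4 and the next is 8, so 4 counts were taken as 1 fragment, and a deposited FPKM of 0.0001 was read as 0. Multiples of 4 made up only 35.2% of the counts from 1 to 19, so this divisor is an assumption. Fragment numbers, lower bounds, counting intervals and the ratios to sampling noise depend on it. Counts were tested as deposited with edgeR 4.0.16 in R 4.3.3 (TMM scaling, robust quasi-likelihood F test, 4 groups, no block) for 24944 genes with a mean of at least 1 FPKM, with p-values adjusted over all of them. Summing, exact tests and plots used Python 3.11.15 with pandas 2.3.3, scipy 1.17.1 and matplotlib 3.10.9. The tests were first run on simulated data.

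Roles came from the description for 69 members, from the table's ortholog column for 8 and by hand for 2. Members, roles, pathway lists and markers were chosen with earlier results of these data known. Text names the 2 most abundant tested members of each role (1 in small roles), all members higher in a comparison with 0d or between successive times, the 3 largest falls per time among members with a mean of at least 5 FPKM, and the most abundant member called nowhere; others were picked after their values were seen. Groups with 0 counts were set to a floor of 3 fragments (12 counts) over the group; floors and intervals (95%) cover counting error only, and fragments without molecular identifiers are not independent molecules. Libraries are pools of shoots, and p-values measure the spread between these libraries, which may be partly technical. Alternatives were other scalings, DESeq2 1.42.0, limma 3.58.1 on log2(FPKM + 1) or log2(FPKM + 0.1), other filters, a replicate block and leaving out each library. Sequences are not shown, as no reference was used here.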

Additional observations from a re-analysis of the deposited data

Results flagged for a closer look

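Of 136 sets of 4 libraries examined, 12 had 1 library far from the other 3, where chance alone flags about 1 set in 20. In 20d replicate 4, the one-helix protein gene PH02Gene36977 was at 142 FPKM with the others at 173 to 174, which as the only gene of its role is also that role's sum, and the sum over all members was 204.5 FPKM with the others at 234.2 to 236.2. The same library was high for Lhcb1 PH02Gene49412, at 0.287 FPKM against 0.111 to 0.138, for plastocyanin PH02Gene36631, at 0.171 against 0.0956 to 0.106, and for Lhcb7 PH02Gene34137, at 1.86 against 1.29 to 1.35. Leaving it out gave 46 members lower than at 0d at 20d in place of 45.

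The other sets were spread over several libraries. Plastocyanin PH02Gene20101 was at 0.989 FPKM in 2d replicate 1 and at 0.662 to 0.717 in the others. PsaH PH02Gene04280 was at 7.06 FPKM in 0d replicate 3 and at 9.05 to 9.35 in the others. The sum of the 2 Rubisco small subunit genes was 0.835 FPKM in 2d replicate 2, with 1.65 to 1.81 in the others. The photosystem I subunits summed to 7.29 FPKM in 20d replicate 3, with 8.63 to 8.85 in the others. All members summed to 1257 FPKM in 0d replicate 2, with 1272 to 1274 in the others, and without the one-helix protein to 174.0 FPKM in 6d replicate 4, with 161.7 to 162.8 in the others.

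In deposited FPKM, 2 of the 26 named members had 1 stored time with all libraries above all 0d libraries and another with all below. The share of all tested genes with this pattern was not counted. The lower part alone held for 47.4% of all tested genes at 6d and 51.2% at 20d. PSA2 PH02Gene35808 had a log2 change of 1.06 at 2d and -0.61 at 20d, with all 4 libraries above those of 0d at the first time and all 4 below at the second. PsbR PH02Gene08266 had 1.01 at 2d against -0.83 at 6d and -0.31 at 20d, the last with an edgeR adjusted p of 0.108. The difference between 20d and 2d was not tested for either gene; between 6d and 2d PH02Gene08266 fell by 1.84 on the log2 scale (SE 0.18, edgeR adjusted p = 2.13e-09).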

How the results depend on the processing

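No called change of a named member reversed in any of 26 alternatives. The following counts moved by more than 1.5 times. With a minimum mean of 5 FPKM, which leaves fewer members to test, 19, 18 and 21 members were lower at 2d, 6d and 20d, 1 was higher at 2d, 2 were higher from 2d to 6d, 14 were lower and 0 higher from 6d to 20d, and 24 were called over the 4 times. Members higher at 2d numbered 0 under total-count scaling, 1 under upper-quartile scaling, 0 in limma on log2(FPKM + 1), 0 in limma on log2(FPKM + 0.1), 7 without a filter and 6 without the limit on the log2 change. Members higher at 6d numbered 3 without a filter and 2 without the limit, and at 20d 2 and 2. From 2d to 6d, limma on log2(FPKM + 1) gave 1 lower and 1 higher, limma on log2(FPKM + 0.1) gave 3 lower, and dropping the limit gave 13 lower and 14 higher. From 6d to 20d, limma on log2(FPKM + 1) gave 12 lower, dropping the limit gave 4 higher, and adding the genes under other descriptions (chosen after seeing the data) gave 3 higher. The cause of these moves was not tested beyond what each setting itself removes. Leaving out 1 library gave 41 to 43 lower and 2 to 3 higher at 2d, 39 to 41 and 0 at 6d, and 45 to 46 and 0 at 20d. It gave 4 to 7 lower and 5 to 8 higher from 2d to 6d (5 without 6d replicate 4), 31 to 35 lower and 1 to 2 higher from 6d to 20d (2 without 6d replicate 2), and 49 to 50 over the 4 times. Of 2004 values for 26 named members, 1947 kept their call, 41 gained one and 16 lost it, all of the 16 among the 3 rises at 2d. Total-count scaling lowered the share of higher calls among all called genes from 42.0% to 28.5% at 2d, 43.7% to 33.6% at 6d and 44.3% to 31.0% at 20d. Same-numbered libraries did not deviate together (correlations from -0.0463 to 0.0571; 4 of 16 libraries were closest to their own number), so numbers were not treated as pairs; with a replicate block, 42, 40 and 45 members were lower and 3, 0 and 0 higher at 2d, 6d and 20d, 5 and 6 from 2d to 6d, 31 and 1 from 6d to 20d, and 49 over the 4 times. Depth limits the members near 0 at 20d, whose falls are bounds or carry wide counting intervals.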
